A study of Mus musculus with 31 samples.

Results

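The T cell identity genes are 9 mouse genes taken by name: Cd3d, Cd3e, Cd3g, Cd247, Cd4, Cd8a, Cd8b1, Lck and Il7r. Each was matched to its symbol in the deposited table of raw read counts, and all 9 were found among its 39017 genes. The table holds 31 bulk RNA libraries of breast tumours grown orthotopically in syngeneic wild-type mice, from 2 models titled 4T1 and MT. Mice of each model received saline with PBS (control), saline with phenformin, poly I:C with PBS, or poly I:C with phenformin (combination). Phenformin is a biguanide that inhibits mitochondrial complex I, and poly I:C is a double-stranded RNA mimic that triggers innate sensors. There were 4 libraries in every group but 4T1 phenformin, which had 3 (replicates 1, 2 and 4). Ages, doses, times and whether each library is 1 animal are not given in the sources used here, so p-values measure only the spread between these libraries. The design pairs MT with FVB and 4T1 with BALBc mice, whereas the tissue and cell line tags of single libraries pair them the other way (FVB and MT4788 for libraries titled 4T1). Groups here follow the titles. H2-Ea-ps, an MHC class II gene silent in the haplotype of FVB mice, measured 214 to 970.3 CPM (counts scaled to the library total) in 4T1-titled libraries and 5.24 to 53.0 CPM in MT-titled ones.

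A T cell recognises antigen through a receptor whose clonotypic chains have almost no cytoplasmic tail, so signalling depends on the CD3 chains encoded by Cd3d, Cd3e and Cd3g and on the zeta chain encoded by Cd247. CD4 and CD8 are coreceptors that bind MHC class II and class I, and they bring the kinase Lck, which phosphorylates the CD3 and zeta tails. Il7r encodes the alpha chain of the interleukin 7 receptor, which keeps naive and memory T cells alive. In bulk tumour RNA these genes report T cells, with known exceptions: NK cells transcribe Cd247, some dendritic cells transcribe Cd8a, some macrophages and dendritic cells transcribe Cd4, and innate lymphoid cells transcribe Il7r.

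Cd3d (ENSMUSG00000032094, GRCm38 chromosome 9, 44981786 to 44987339) and Cd3g (ENSMUSG00000002033, chromosome 9, 44969572 to 44980431) are transcribed in opposite directions from starts 1355 bases apart, and Cd3e (ENSMUSG00000032093, chromosome 9, 44998740 to 45009627) lies beside them. Cd8a (ENSMUSG00000053977, 71373427 to 71379173) and Cd8b1 (ENSMUSG00000053044, 71322788 to 71337494) are neighbours on chromosome 6, where Cd4 (ENSMUSG00000023274, 124864692 to 124888221) also lies. Cd247 is ENSMUSG00000005763 (chromosome 1, 165788681 to 165877277), Lck is ENSMUSG00000000409 (chromosome 4, 129548344 to 129573641) and Il7r is ENSMUSG00000003882 (chromosome 15, 9505788 to 9530176). Exons of Cd247 overlap those of Pou2f1 on the other strand and of Gm16565 on the same strand, exons of Cd3e overlap those of Gm48719 on the other strand, and Lck contains Mir8119. The strand setting of the counting is not given in the sources used here, so reads of such partners cannot be told apart.

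The 250 bases before the starts of the 9 genes were read from the RefSeq promoter table (GRCm38.p6), which gave 8 windows for 7 of the genes, Lck having 2 starts. The letters CAGGAAGT, a form of the site that ETS family factors bind, were searched on both strands (ACTTCCTG on the other strand) and are shown in capitals. They were chosen after the sequences were seen. The first 4 windows below hold them and the fifth, of Cd3d, does not. All are written 5′ to 3′ on the strand of the gene.
Cd3e (chr9:45009612-45009861, minus strand): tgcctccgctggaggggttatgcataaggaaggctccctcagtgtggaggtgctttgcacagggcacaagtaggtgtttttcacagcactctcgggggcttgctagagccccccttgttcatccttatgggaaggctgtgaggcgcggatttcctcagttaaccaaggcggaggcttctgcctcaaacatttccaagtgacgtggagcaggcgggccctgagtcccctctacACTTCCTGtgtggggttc
Cd247 (chr1:165788431-165788680, plus strand): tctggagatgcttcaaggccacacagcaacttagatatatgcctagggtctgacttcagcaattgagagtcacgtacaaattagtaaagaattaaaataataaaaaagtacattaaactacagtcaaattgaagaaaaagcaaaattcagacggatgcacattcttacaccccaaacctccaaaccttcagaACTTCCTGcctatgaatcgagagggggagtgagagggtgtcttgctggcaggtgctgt
Il7r (chr15:9529877-9530126, minus strand): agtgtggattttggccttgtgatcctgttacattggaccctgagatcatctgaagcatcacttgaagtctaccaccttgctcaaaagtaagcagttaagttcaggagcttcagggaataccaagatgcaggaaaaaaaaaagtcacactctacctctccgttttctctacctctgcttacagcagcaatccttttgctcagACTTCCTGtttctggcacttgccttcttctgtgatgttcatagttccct
Lck, upstream start (chr4:129573642-129573891, minus strand): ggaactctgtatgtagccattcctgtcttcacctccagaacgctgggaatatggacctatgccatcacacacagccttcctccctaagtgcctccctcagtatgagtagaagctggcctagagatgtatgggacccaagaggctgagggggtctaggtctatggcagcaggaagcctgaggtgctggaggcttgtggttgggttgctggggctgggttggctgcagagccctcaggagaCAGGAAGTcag
Cd3d (chr9:44981536-44981785, plus strand): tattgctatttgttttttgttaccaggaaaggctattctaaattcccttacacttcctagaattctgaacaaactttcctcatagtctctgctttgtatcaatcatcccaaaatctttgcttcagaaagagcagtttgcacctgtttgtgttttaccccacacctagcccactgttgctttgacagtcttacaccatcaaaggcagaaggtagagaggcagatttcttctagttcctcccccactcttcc
The letters were in 5 of the 8 windows (4 of the 7 genes), against 2.69% of 32851 windows of this length in the table. As they were chosen after these windows were seen, this difference is not a test. The letters began 18 bases before the start in Cd3e, 58 in Cd247, 49 in Il7r and 11 in the upstream window of Lck. The windows of Cd3d, Cd3g and Cd8a do not hold these letters, which says nothing about the factors that bind there.

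Before any comparison of treatments, 9 libraries stood apart. Glycam1, a mucin-like ligand made by the high endothelial venules of lymph nodes, was above 50 CPM in 4T1 control 4, phenformin 2 and poly I:C 1, and in MT control 4, phenformin 4, poly I:C 3 and 4, and combination 1 and 4 (Glycam1-high libraries from here on). It measured 196 to 372 CPM in these 3 4T1 libraries and 57.4 to 1349 CPM in the 6 MT libraries, against 0 to 11.5 CPM in the other 22. Ccl21a, the chemokine of lymph node stroma, and the B cell gene Ms4a1 were also high there (3.05 to 74.5 and 9.57 to 594 CPM, against at most 1.86 and 3.30 CPM elsewhere). The summed CPM of 11 B cell markers was 166 to 621 against 2.92 to 26.7 in 4T1, and 64.5 to 2497 against 2.69 to 23.2 in MT. Sums of 9 macrophage markers overlapped between the same libraries, at 578 to 1871 against 759.9 to 2061 CPM in 4T1 and 375 to 1525 against 408 to 1627 CPM in MT. In MT, a second difference ran with treatment: Sox10 was 34.4 to 211 CPM in control 1 to 3 and phenformin 1 to 3 and 0.699 to 3.19 CPM in the other 10 MT libraries. Total counts ran from 12160110 to 19849915 per library. In 4T1, 5 libraries of the treated arms held the muscle gene Acta1 above 10 CPM.

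**Figure D1:**
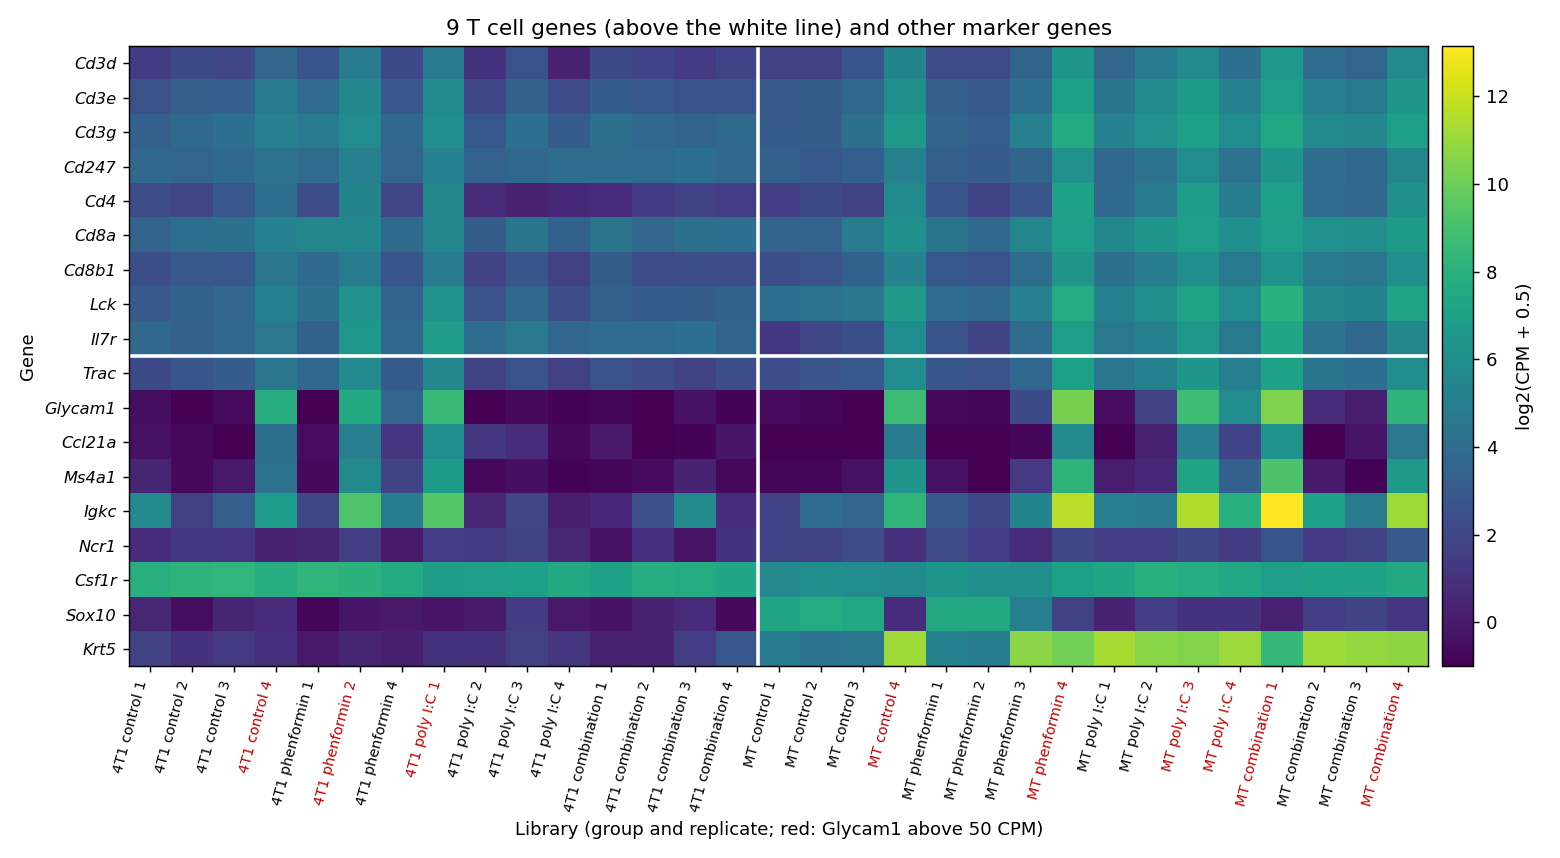
Heat map of log2(CPM + 0.5) for the 9 T cell genes (above the white line) and other marker genes (below it) in 31 libraries, 4T1 left and MT right of the vertical line. Columns with red names are the 9 libraries with Glycam1 above 50 CPM, where the T cell rows, Ccl21a, Ms4a1 and Igkc are bright together, and Sox10 is bright in 6 MT libraries.

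The T cell genes were highest in these libraries. In 6 of the 7 groups that hold any, all 9 genes were higher in the Glycam1-high library or libraries than in every other library of the group. The exception was MT poly I:C, where this held for Cd4 alone of the 9, because replicate 2, with Glycam1 at 3.02 CPM, lay above replicate 4, with 57.4 CPM. Most of these groups hold a single Glycam1-high library. The share of all genes that were highest there is not given here, so this pattern is not shown to be particular to T cell genes. In bulk RNA, more T cells and more RNA per T cell cannot be told apart, and the part that lymph node tissue in the tumour piece had in these levels was not tested.

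Cd3e, the CD3 chain that every T cell receptor complex holds, measured 5.11, 9.10, 8.72 and 29.0 CPM in 4T1 control 1 to 4, and 15.1, 47.4 and 6.72 CPM in phenformin 1, 2 and 4. It measured 54.8, 3.48, 9.80 and 4.19 CPM in 4T1 poly I:C 1 to 4 and 8.21, 6.92, 5.196 and 5.36 CPM in combination 1 to 4. One library of each of the first 3 groups was high, and the combination, which has no Glycam1-high library, was the tightest group. In MT, Cd3e measured 7.10, 8.39, 12.9 and 65.7 CPM in control, 9.28, 7.20, 16.7 and 132 CPM in phenformin, 22.4, 51.6, 104 and 37.0 CPM in poly I:C and 121, 32.7, 26.1 and 85.3 CPM in combination, each in replicates 1 to 4. The groups overlapped in both models. In 4T1 they did so also outside the Glycam1-high libraries, and in MT a single control and a single phenformin library reached the levels of the poly I:C libraries.

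Cd3d and Cd3g, the other CD3 chains, followed the same libraries. Cd3d ranged from 12.1 to 28.3 CPM in the Glycam1-high 4T1 libraries and from 0.729 to 5.91 CPM in the other 12, and in MT from 17.8 to 91.2 and 2.69 to 27.1 CPM. Cd3g ranged from 35.4 to 60.3 against 6.84 to 28.7 CPM in 4T1 and from 58.6 to 197 against 7.93 to 70.2 CPM in MT. The lowest values of Cd3d were in 4T1 poly I:C 4 (0.729 CPM) and 2 (1.62 CPM), while poly I:C 1 of the same group held 27.9 CPM.

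Cd247, the zeta chain, varied least of the 9 genes in 4T1. Outside the Glycam1-high libraries it stayed within 10.3 to 17.5 CPM over 12 libraries, a highest-to-lowest ratio of 1.70, where Cd3e spanned a ratio of 4.34 and Cd3d one of 8.10. The Glycam1-high 4T1 libraries held 19.9 to 37.9 CPM of Cd247. In MT it spanned 7.08 to 19.6 CPM in the 10 other libraries and 18.9 to 82.5 CPM in the 6 Glycam1-high ones. NK cells also use the zeta chain. The summed CPM of 10 NK cell markers was 49.1 to 68.0 in the Glycam1-high and 24.1 to 63.7 in the other 4T1 libraries, and 65.0 to 165 against 35.7 to 168 in MT. These ranges overlapped in both models, and the part of NK cells in the Cd247 level was not tested. The list includes Klrk1, which CD8 T cells also use, and Nkg7, the gene most like Cd8a by the correlations given below. In 4T1, 1 of the 10 markers had 0 counts in every library.

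Cd4, the coreceptor of helper and regulatory T cells, varied most in 4T1. It measured 4.12, 3.36, 6.79 and 17.3 CPM in control 1 to 4 and 4.56, 39.5 and 3.42 CPM in phenformin 1, 2 and 4. In 4T1 poly I:C 1 to 4 it measured 48.5, 1.16, 0.714 and 1.03 CPM, and in combination 1 to 4 1.16, 2.25, 2.83 and 2.42 CPM. Leaving poly I:C 1 aside, every poly I:C and combination library of 4T1 was below every 4T1 control library, at 11 to 48 reads for the gene. In MT, Cd4 measured 2.44, 3.93, 3.03 and 52.8 CPM in control, 5.94, 2.82, 6.19 and 136 CPM in phenformin, 13.6, 29.5, 108 and 30.3 CPM in poly I:C and 129, 14.8, 12.9 and 67.7 CPM in combination. Here every poly I:C and combination library was above control 1 to 3 and phenformin 1 to 3, but control 4 and phenformin 4 were among the 5 highest of the model.

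Cd8a, the alpha chain of the coreceptor of cytotoxic T cells, measured 10.95, 16.8, 18.0 and 37.4 CPM in 4T1 control, 42.9, 49.0 and 14.6 CPM in phenformin 1, 2 and 4, 43.9, 8.58, 22.5 and 10.1 CPM in poly I:C and 20.9, 12.4, 18.0 and 17.4 CPM in combination. Phenformin 1, which is not a Glycam1-high library, held nearly as much Cd8a as phenformin 2, although its Cd4 was low. In MT, Cd8a measured 10.9, 10.8, 27.8 and 67.3 CPM in control, 21.9, 12.8, 42.6 and 120.1 CPM in phenformin, 48.4, 87.0, 118 and 68.3 CPM in poly I:C and 119, 71.7, 64.2 and 106 CPM in combination. Its Glycam1-high and other MT libraries overlapped, at 67.3 to 120.1 and 10.8 to 87.0 CPM. Cd8b1, the beta chain found on conventional CD8 T cells but not on CD8-positive dendritic cells, ranged from 2.67 to 14.6 CPM in the other 4T1 libraries and from 4.77 to 31.7 CPM in the other MT libraries. The ratio of Cd8a to Cd8b1 counts was 1.503 to 1.744 in the Glycam1-high 4T1 libraries and 2.29 to 3.82 in the other 12. In MT these ranges overlapped, at 1.494 to 2.681 and 1.918 to 3.21.

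Lck, the kinase that starts receptor signalling, ranged from 4.50 to 18.4 CPM in the other 4T1 libraries and from 14.5 to 65.3 CPM in the other MT libraries, and reached 37.3 to 74.9 and 55.4 to 259 CPM in the Glycam1-high ones. The ratio of Lck to Cd3e counts lay between 1.07 and 1.90 in the other 4T1 libraries and between 1.27 and 2.42 in the other MT libraries.

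Il7r measured 12.98, 9.80, 13.00 and 23.6 CPM in 4T1 control, 9.999, 94.8 and 13.3 CPM in phenformin 1, 2 and 4, 107, 15.7, 24.9 and 12.5 CPM in poly I:C and 15.6, 14.9, 17.8 and 11.5 CPM in combination. Apart from the 3 Glycam1-high libraries these levels span 9.80 to 24.9 CPM, with poly I:C 3 the highest. In MT it measured 1.97, 3.54, 4.87 and 57.6 CPM in control, 5.94, 3.23, 15.5 and 116 CPM in phenformin, 25.2, 36.4, 92.4 and 25.8 CPM in poly I:C and 165, 19.4, 12.8 and 45.6 CPM in combination. The lowest library, MT control 1, and the highest, MT combination 1, differed by a ratio of 83.8, the widest span of any member in a model. The other Il7r-dependent cells were represented by 7 innate lymphoid type 2 markers, whose sums overlapped between the Glycam1-high and the other libraries in 4T1 (42.3 to 91.3 against 35.4 to 105 CPM) and in MT (56.0 to 130.1 against 22.4 to 62.3 CPM), and their part in the Il7r level was not tested.

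**Figure D2:**
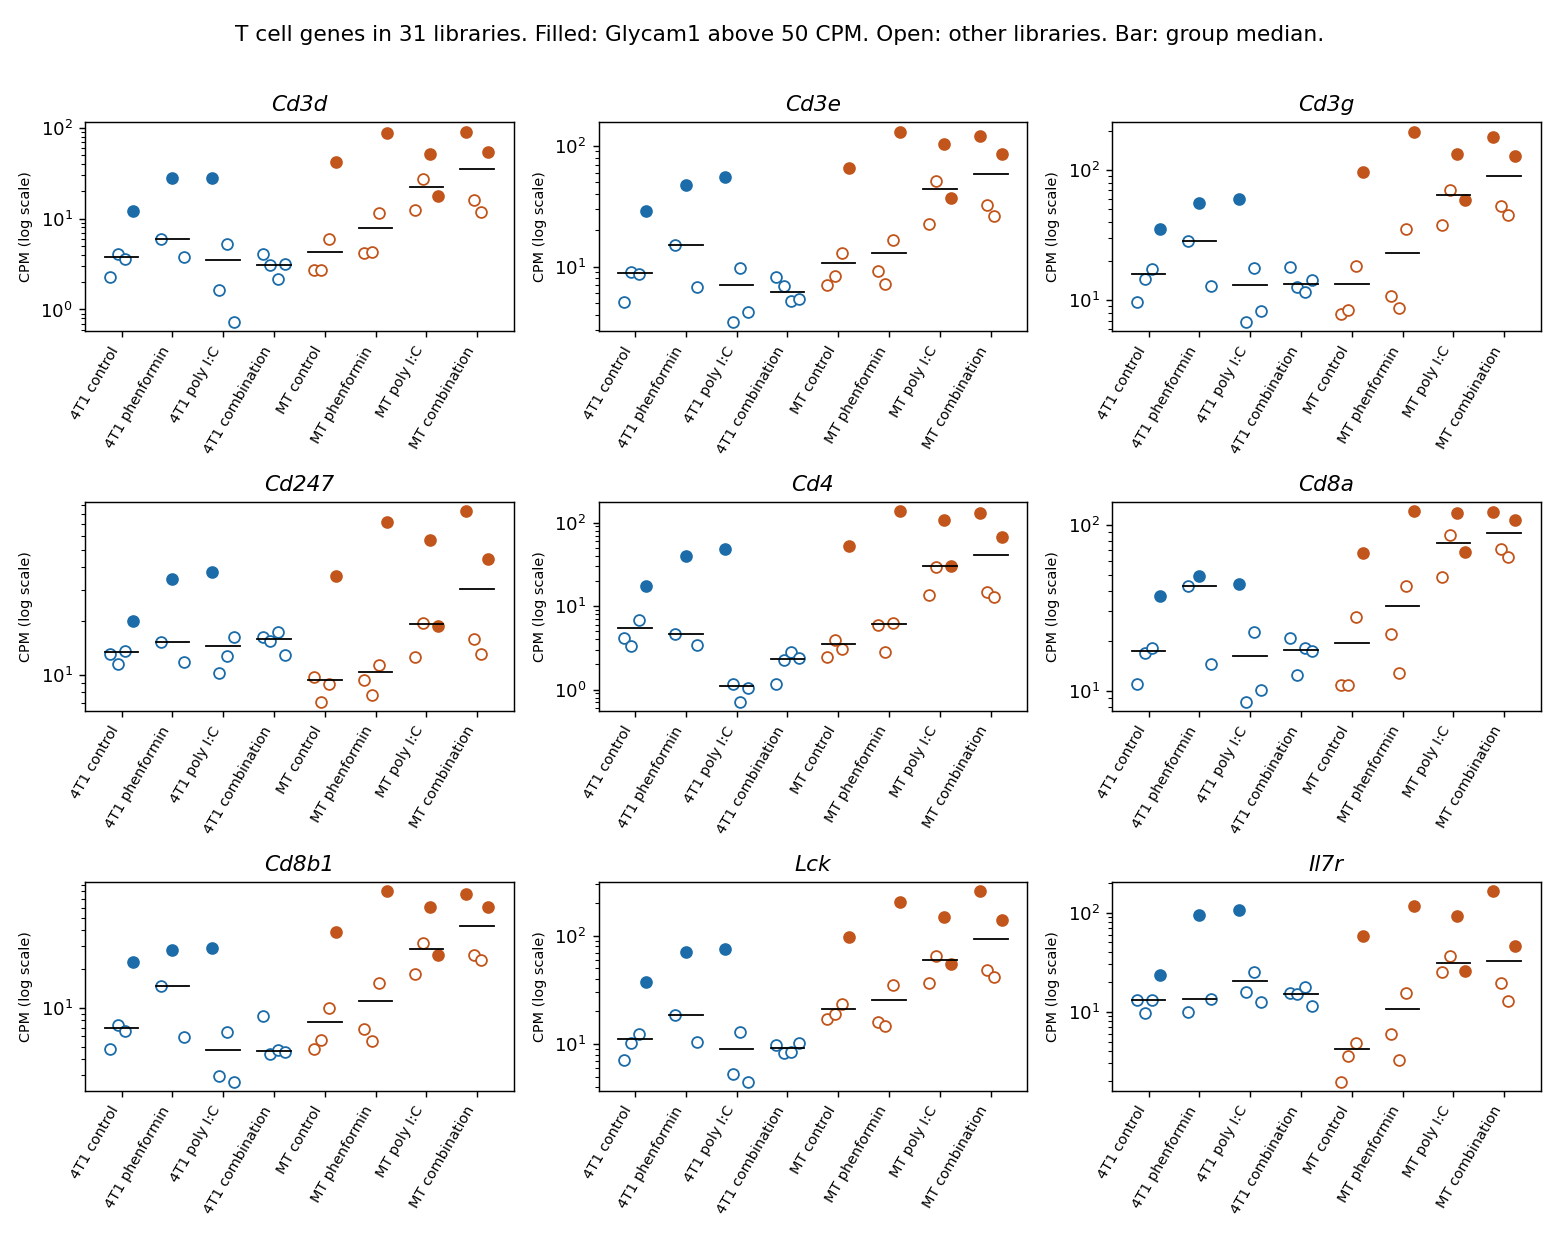
CPM of each T cell gene on a log axis in the 8 groups (4T1 blue, MT orange), 1 point a library, with the group median as a bar. Filled points are libraries with Glycam1 above 50 CPM, which top their groups in all panels except in MT poly I:C, where open replicate 2 is above filled replicate 4 for every gene but Cd4.

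Per kilobase of exon, the scale on which genes can be compared, the order of the medians over the 12 other 4T1 libraries was Cd8a (4.71 CPM per kb), Cd3g (4.18), Cd8b1 (3.61), Lck (3.40), Il7r (2.82), Cd247 (2.52), Cd3d (1.86), Cd3e (1.67) and Cd4 (0.651). In the 10 other MT libraries it was Lck (9.93 CPM per kb), Cd8a (9.67), Cd8b1 (8.64), Cd3g (8.16), Cd3d (4.797), Cd3e (3.62), Il7r (2.01), Cd247 (1.98) and Cd4 (1.504). Cd4 was the lowest in both, and Il7r and Cd247 stood lower in the MT order. Neighbours in either order overlapped over libraries.

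Ratios of counts within a library do not depend on its scaling, and they are described without a test. The ratio of Cd8a to Cd4 was 0.905 to 2.16 in the Glycam1-high 4T1 libraries and 2.65 to 31.5 in the other 12. In MT it was 0.880 to 2.26 against 2.75 to 9.17. The ranges did not overlap in either model. The highest ratio was in 4T1 poly I:C 3, where Cd4 had 11 reads. The ratio of Cd247 to Cd3e was 0.688 to 0.725 in the Glycam1-high 4T1 libraries and 1.01 to 3.90 in the other 12, so the zeta chain was not proportionate to CD3 epsilon. In MT these ranges were 0.511 to 0.684 and 0.380 to 1.36. The ratio of Il7r to Cd3e had a median of 2.15 (0.662 to 4.50) in the other 4T1 libraries and of 0.544 (0.277 to 1.12) in the other MT libraries.

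**Figure D3:**
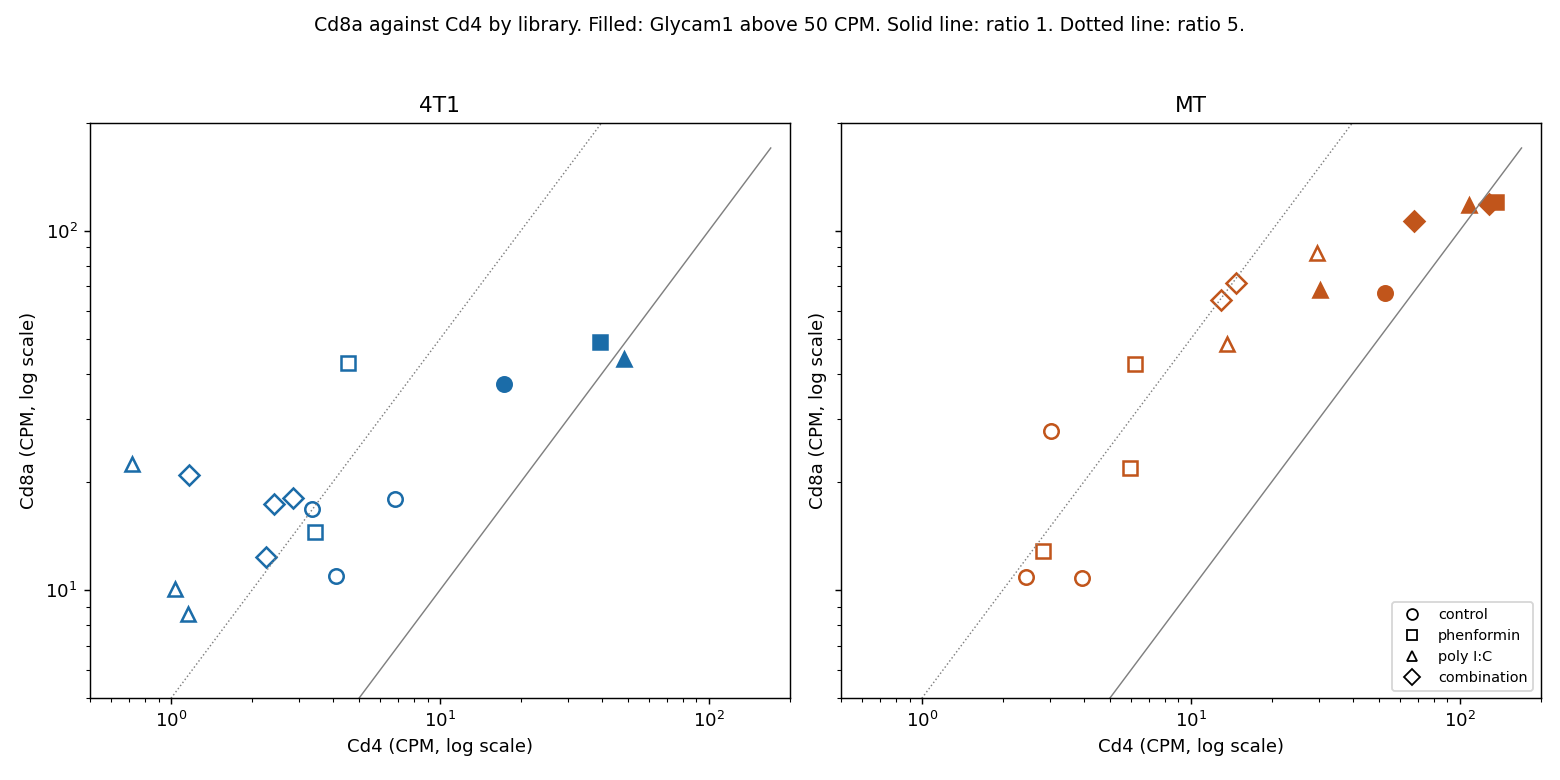
Cd8a against Cd4 in CPM, both on log axes, for the 15 4T1 libraries (left) and 16 MT libraries (right), with 1 symbol for each arm. Filled points (Glycam1 above 50 CPM) lie near the solid line of equal levels, and open points lie above it, around the dotted line where Cd8a is 5 times Cd4.

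In 4T1, no member passed the threshold in any comparison of treatments, with all 15 libraries (edgeR's quasi-likelihood test, Benjamini-Hochberg adjusted p under 0.05). For poly I:C against control 0 of 9 members passed, where 6.32% of all 17445 genes tested did. The 2 members with the smallest p were Il7r, at 1.44 ± 0.71 on the log2 scale (± SE, adjusted p = 0.232), and Cd247 at 0.43 ± 0.37 (adjusted p = 0.519). The median over the 9 members was 0.49, against 0.01 over all genes, and no member had an unadjusted p under 0.05, where 23.9% of all genes did. For phenformin against control (0 of 9, background 0%), Il7r measured 1.43 ± 0.75 (adjusted p = 0.560) and Cd8a 0.81 ± 0.52 (adjusted p = 0.661). For the combination against control (0 of 9, background 0%), Cd4 measured -1.81 ± 1.21 (adjusted p = 0.602) and Cd3e -0.95 ± 0.82 (adjusted p = 0.706). All 9 point estimates were below 0 for the combination against poly I:C (0 of 9 called, background 0.246%), with Cd4 at -2.52 ± 1.22 (adjusted p = 0.270) and Il7r at -1.37 ± 0.71 (adjusted p = 0.298). The same held against phenformin (0 of 9, background 0%; Cd4 -2.83 ± 1.28, adjusted p = 0.393, and Lck -1.84 ± 0.87, adjusted p = 0.409) and for the interaction, the combination over phenformin minus poly I:C over control (0 of 9, background 0%; Il7r -2.80 ± 1.03, adjusted p = 0.505, and Cd4 -3.54 ± 1.70, adjusted p = 0.542). In each of these last 2 comparisons 1 member had an unadjusted p under 0.05, where 12.5% and 9.33% of all genes did. DESeq2 called no member in any of the 6 comparisons, 1 member having no adjusted p, and limma's voom with library weights called none.

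Of the comparisons with no gene called by edgeR, phenformin had 1753 of 17445 genes at an unadjusted p under 0.05 (10% of genes), the combination against control 2072 (11.9%), the combination against phenformin 2174 and the interaction 1628. For the combination against poly I:C it was 19.6% of genes and 0 of 9 members. DESeq2 called 174, 399, 180 and 36 genes in them, and voom 0, 226, 0 and 2. The SEs of the members were 0.37 to 1.13 for poly I:C against control, where the median SE of all genes was 0.16.

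Without the 3 Glycam1-high libraries, which were left out after seeing that they are high for these genes, the estimates of 4T1 poly I:C against control were below 0 for 7 of 9 members. For poly I:C against control, 1 of 9 members passed (background 1.49%). It was Cd4, which was lower at -2.24 ± 0.37 (adjusted p = 0.029), with 4.12, 3.36 and 6.79 CPM in control 1 to 3 against 1.16, 0.714 and 1.03 CPM in poly I:C 2 to 4. Whether T cells or macrophages carried this Cd4 difference was not tested. The 8 other members lay between -0.60 (Cd8b1) and 0.59 (Il7r). Without poly I:C 1 alone, or control 4 alone, no member passed. Over the fits without 1 library, 289 to 1986 of all genes passed. For the combination, Cd4 was at -1.09 ± 0.31 (adjusted p = 0.234), with no overlap of the 4 combination and 3 control libraries, and none of the 9 passed (background 0%). Against poly I:C, Cd4 in the combination turned to 1.15 ± 0.35 (adjusted p = 0.157), and none of the 9 passed (background 0.00574%).

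In MT, the point estimates of all 9 members were above 0 for poly I:C, for phenformin and for the combination, and none passed. For poly I:C against control (0 of 9 members, where 19.6% of all 17857 genes passed), Cd8a measured 1.39 ± 0.65 (adjusted p = 0.140) and Cd8b1 1.13 ± 0.83 (adjusted p = 0.345). For the combination against control (0 of 9, background 6.14%), Cd8a measured 1.57 ± 0.65 (adjusted p = 0.131) and Cd8b1 1.60 ± 0.84 (adjusted p = 0.214). For phenformin (0 of 9, background 0%), Cd8a measured 0.72 ± 0.64 (adjusted p = 0.871) and Cd8b1 0.82 ± 0.83 (adjusted p = 0.876). The combination was not shown to differ from poly I:C (0 of 9, background 0%; Lck 0.69 ± 0.87, adjusted p = 0.920, and Cd247 0.55 ± 0.80, adjusted p = 0.932). Against phenformin (0 of 9, background 0.106%), it measured 0.85 ± 0.64 for Cd8a (adjusted p = 0.563) and 0.84 ± 0.87 for Lck (adjusted p = 0.661). The interaction was -0.54 ± 0.90 for Cd8a (adjusted p = 0.903) and -0.90 ± 1.80 for Cd4 (adjusted p = 0.919; 0 of 9, background 0%). Cd8a had an unadjusted p under 0.05 for poly I:C and for the combination against control, where 35.6% and 29.8% of all genes did. No other member did so in any of the 6 comparisons (13.2% of genes for the combination against phenformin). DESeq2 called 0 of 9 in all 6. voom, which gives deviating libraries less weight, called 9 for poly I:C and 8 for the combination against control. Of all 17857 genes it called 10642 and 9378 there. It called 3 for the combination against phenformin (Cd3g, Cd8a and Cd8b1), where 5486 genes were called, and 0 in the other 3.

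Of the MT comparisons with no gene called by edgeR, phenformin had 1084 of 17857 genes at an unadjusted p under 0.05 (6.07%), the combination against poly I:C 1076 (6.03%) and the interaction 1769 (9.91%). DESeq2 called 20, 4 and 34 genes in them, and voom 0, 973 and 0.

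Without the 6 Glycam1-high libraries, 9 of 9 members were higher in MT poly I:C than in control (n = 2 against n = 3, background 20.3% of 17633 genes called higher and 37.3% either way). The differences ran from 0.80 ± 0.24 for Cd247 (adjusted p = 0.0283) to 3.05 ± 0.58 for Il7r (adjusted p = 0.00566), and Cd4 was 2.67 ± 0.39 (adjusted p = 0.0031). For the combination (n = 2), 8 of 9 were higher (background 16.9% higher, 31% either way), from 1.06 ± 0.36 for Lck (adjusted p = 0.0489) to 2.13 ± 0.57 for Il7r (adjusted p = 0.0242), and Cd247 measured 0.66 ± 0.24 (adjusted p = 0.0626). For phenformin, the combination against poly I:C, the combination against phenformin and the interaction, 0 of 9 passed (background 0% in each). The left-out libraries are those with the most T cell RNA, so leaving them out is no independent test. Without control 4 alone, 2 members passed for poly I:C (Cd8a 2.17 ± 0.64, adjusted p = 0.0194, and Il7r 3.58 ± 1.26, adjusted p = 0.0415) and 6 for the combination. Over the fits without 1 library, 1512 to 6256 of all genes passed for poly I:C and 19 to 5375 for the combination.

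The 3 MT controls that remain all have high Sox10 and low Krt5, and the remaining poly I:C and combination libraries all have low Sox10 and high Krt5, so treatment and this state of the tumour cannot be told apart there. In the remaining libraries with Sox10 above 10 CPM (control and phenformin 1 to 3) Cd3e was 7.10 to 16.7 CPM, and in those without (poly I:C 1 and 2, combination 2 and 3) it was 22.4 to 51.6 CPM. Phenformin 3, with Sox10 at 34.4 and Krt5 at 1653 CPM, had 16.7 CPM of Cd3e, above phenformin 1 and 2. With each library's Krt5 to Sox10 ratio (log2) entered as a covariate over all 16 libraries, 8 of the 9 estimates for poly I:C were below 0 and none passed. Cd4 was then -0.31 ± 1.18 (adjusted p = 0.909) and Cd8a 0.05 ± 0.54 (adjusted p = 0.971). The share of all genes passing in that fit is not given here. Among MT libraries without poly I:C, only control 4 and phenformin 4 have low Sox10, and both are Glycam1-high. There the covariate fit cannot tell the tumour state from high Glycam1. Without the 6 libraries with Sox10 above 10 CPM, which leaves 1 control that is itself Glycam1-high, Cd4 was -0.28 ± 1.34 (adjusted p = 0.962).

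**Figure D4:**
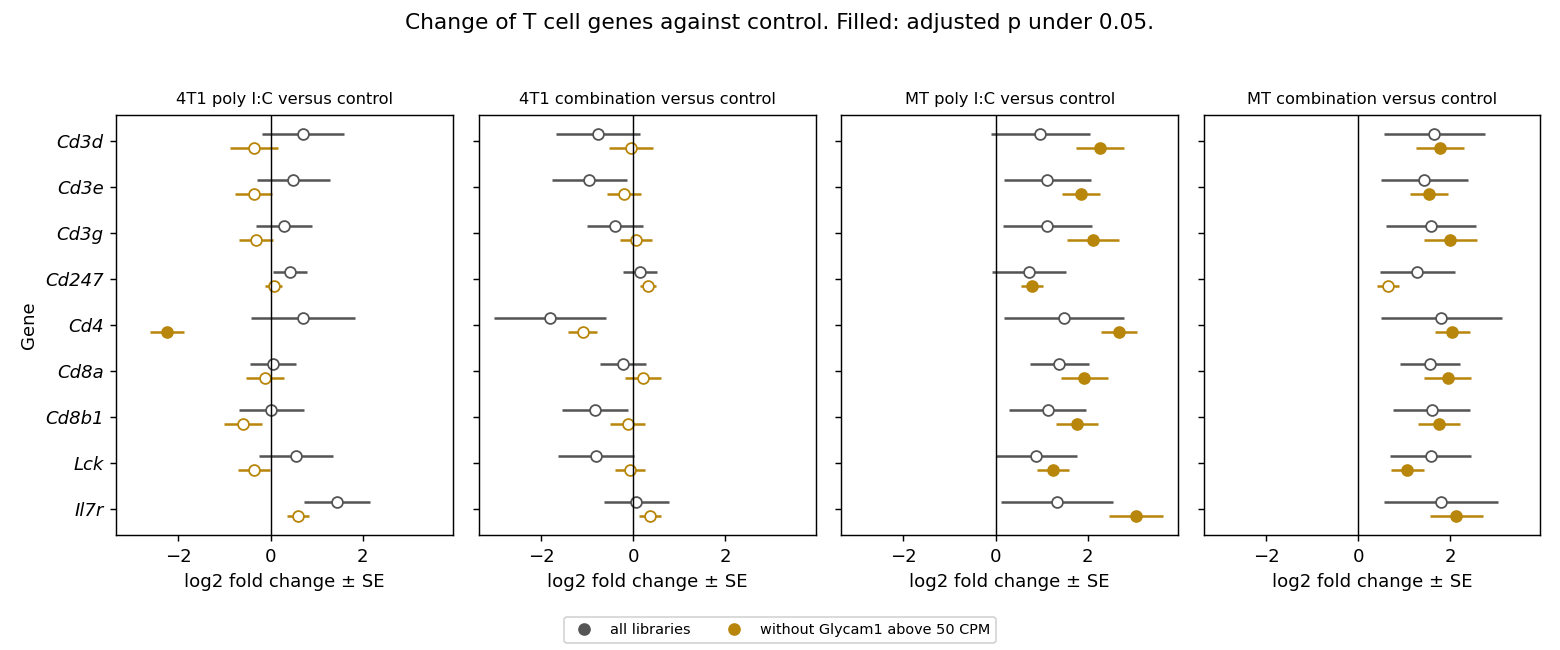
Log2 fold change ± SE of the 9 T cell genes against control for poly I:C and the combination in 4T1 (left pair) and MT (right pair). Grey is the fit with all libraries, where no gene passed. Gold is the fit without libraries with Glycam1 above 50 CPM, where filled points (adjusted p under 0.05) are Cd4 in 4T1 poly I:C, all 9 genes in MT poly I:C and 8 in the MT combination.

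Between the models, no member differed in the controls with all libraries (0 of 9, where 51.9% of 18956 genes did). Lck measured -1.21 ± 0.90 (4T1 minus MT, adjusted p = 0.270) and Cd3d -1.23 ± 1.06 (adjusted p = 0.342). The poly I:C response of 4T1 minus that of MT was -1.33 ± 0.85 for Cd8a (adjusted p = 0.329) and -1.10 ± 1.15 for Cd8b1 (adjusted p = 0.583; 0 of 9, background 11.1%). The difference of the combination responses was -1.80 ± 0.86 for Cd8a (adjusted p = 0.187) and -2.44 ± 1.17 for Cd8b1 (adjusted p = 0.190; 0 of 9, background 4.56%), both with an unadjusted p under 0.05, as had 25.5% of all genes. In the controls 57.2% of genes and 0 members had one, and for the poly I:C responses 26.9% and 0. That of the phenformin responses was 0.47 ± 1.52 for Il7r (adjusted p = 0.997) and 0.33 ± 1.30 for Lck (0 of 9, background 0%, with 1394 genes, 7.35%, at an unadjusted p under 0.05). DESeq2 called 0 of 9 in all 4 and 31 genes for the phenformin responses.

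Without the Glycam1-high libraries, 3 members differed between the controls (n = 3 against n = 3, background 58.8%). Il7r was 1.73 ± 0.43 higher in 4T1 (adjusted p = 0.0022), Cd247 was 0.51 ± 0.20 higher (adjusted p = 0.0403) and Lck was lower at -1.08 ± 0.36 (adjusted p = 0.0151). The poly I:C response was lower in 4T1 for 8 of 9 members (background 14.1% lower, 26.3% either way), with Cd4 at -4.92 ± 0.56 (adjusted p = 7.91e-05), and Cd247 at -0.73 ± 0.30 (adjusted p = 0.0824). The combination response was lower for 5 (Cd3e, Cd3g, Cd4, Cd8b1 and Il7r; background 12.6% lower, 23% either way), with Cd4 at -3.14 ± 0.51 (adjusted p = 0.00139). For phenformin 0 of 9 passed (background 0%). The MT libraries in these comparisons differ in Sox10 and Krt5 as given above.

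The constant genes of the T cell receptor itself gave one change that did not follow the Glycam1-high libraries. Of 6 such genes, 1 passed in MT for poly I:C and for the combination against control, where 19.6% and 6.14% of all genes did. For poly I:C this count is not above the share of all genes. The gene was Tcrg-C2, a constant gene of the gamma chain used by gamma-delta T cells. It measured 1.19, 1.31, 2.302 and 1.64 CPM in control, 1.91, 1.55, 2.28 and 2.01 CPM in phenformin, 6.04, 5.48, 6.43 and 6.996 CPM in poly I:C and 4.77, 4.54, 4.82 and 6.74 CPM in combination. All 8 libraries with poly I:C were above all 8 without it. The share of all genes that separate these libraries in this way is not given here. Control 4 and phenformin 4, with low Sox10 and high Glycam1, were as low as the other libraries of their groups. The gene rose by 1.85 ± 0.23 on the log2 scale with poly I:C (adjusted p = 0.00104) and by 1.60 ± 0.22 with the combination (adjusted p = 0.00607), and the combination was above phenformin (1.36 ± 0.22, adjusted p = 0.0435, a call lost in 13 of 18 alternatives). With the Krt5 to Sox10 covariate the poly I:C difference was 1.77 (adjusted p = 0.0103) and the combination difference 1.53 (adjusted p = 0.127). Without the Sox10-high libraries they were 1.87 and 1.62, in a fit that leaves 1 control and cannot decide whether a call holds. In 4T1 it measured -0.42 ± 0.47 with poly I:C (adjusted p = 0.626), and the responses differed between models (-2.28 ± 0.53, adjusted p = 0.00755). The gamma constant genes are close copies of each other, so the split of reads between Tcrg-C2, Tcrg-C1 and Tcrg-C4 is uncertain. In MT, Tcrg-C1 was 0.493 to 0.847 CPM in control and 0.459 to 1.61 CPM in poly I:C. Tcrg-C4 was 0.363 to 0.855 and 0.315 to 1.83 CPM, so both overlapped between these arms. Trac, the constant gene of the alpha chain, followed the 9 members instead, at 4.51, 6.08, 7.04 and 55.8 CPM in MT control and 23.0, 36.6, 90.6 and 33.4 CPM in MT poly I:C.

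Among 20 genes of receptor signalling and costimulation, 0 passed for poly I:C or the combination against control in either model with all libraries. Of all genes, 6.32% passed for poly I:C and 0% for the combination in 4T1, and 19.6% and 6.14% in MT. The medians over the list, in the same order, were 0.60 and -0.70 in 4T1 and 1.32 and 1.78 in MT. Without the Glycam1-high libraries, 18 of 19 tested were higher in MT poly I:C (background 20.3% higher), among them Fyn (1.17 ± 0.16, adjusted p = 0.00271) and Cd28 (2.54 ± 0.40, adjusted p = 0.00364), and 1 of 19 was lower in 4T1 poly I:C (background 0.798% lower, 1.49% either way), Rasgrp1 (-0.90 ± 0.19, adjusted p = 0.0448). Foxp3, the factor of regulatory T cells, was named after its values were seen. It measured 6.79 to 12.6 CPM in the other 12 4T1 libraries and 11.05 to 18.0 CPM in the other 10 MT libraries, against 16.3 to 21.4 and 18.2 to 31.7 CPM in the Glycam1-high ones. Its poly I:C differences were -0.27 ± 0.24 in 4T1 (adjusted p = 0.544) and 0.10 ± 0.29 in MT (adjusted p = 0.816). Foxp3 overlaps Ppp1r3f and Ccdc22 on the other strand and Flicr on its own, so its reads are uncertain.

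Chemokine receptors of tissue T cells passed in MT with poly I:C for 4 of 6 genes (background 19.6% either way, 8.52% higher), led by Ccr2 (1.64 ± 0.29, adjusted p = 0.00301). Ccr2 is also a receptor of monocytes and macrophages, and 9 of 9 macrophage markers rose in the same comparison, against the same background (Csf1r 1.79 ± 0.21, adjusted p = 0.000898, and Mertk 2.02 ± 0.31, adjusted p = 0.00197). In 4T1, Ccr2 fell (-1.64 ± 0.32, adjusted p = 0.0131) together with 4 of 9 macrophage markers (background 6.32% either way, 3.06% lower), led by C1qa (-1.12 ± 0.17, adjusted p = 0.00686) and C1qb (-1.21 ± 0.21, adjusted p = 0.0096). The 6 genes of these lists named here as lower in 4T1 poly I:C with all libraries, Ccr2, C1qa, C1qb, Klrb1c, Cish and Bcl2, lost their call without the 5 libraries with Acta1 above 10 CPM (adjusted p = 0.147 to 0.250), with estimates from -1.67 to -0.38. In that fit, which left poly I:C 1 and 4, 0 of all genes passed, so the loss is not particular to these genes. Of 9 NK cell markers tested, 3 rose in MT poly I:C (background 8.52% higher), led by Klrk1 (1.59 ± 0.24, adjusted p = 0.00181), which CD8 T cells also use, and Klrb1c (1.39 ± 0.36, adjusted p = 0.0166), and of 8 tested in 4T1, 1 fell (background 3.06% lower), Klrb1c (-1.33 ± 0.34, adjusted p = 0.036). Without the 6 libraries with Sox10 above 10 CPM, Ccr2, Csf1r, Mertk and Klrk1 had estimates of 1.29 to 2.11 for MT poly I:C, and Klrb1c 1.28. That fit leaves 1 MT control and cannot decide whether a call holds. Klrb1c lost its call in MT with the Krt5 to Sox10 covariate (adjusted p = 0.196) and without control 2 or poly I:C 3. In 4T1 it lost its call without control 2 or 3 or poly I:C 1 or 2. In the MT combination, Csf1r rose by 1.32 ± 0.21 (adjusted p = 0.0104), a call lost without control 1 (adjusted p = 0.0539) and with the Krt5 to Sox10 covariate (adjusted p = 0.145).

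Of 13 genes of the Il7r pathway, 7 differed between the models in the controls, 4 higher and 3 lower in 4T1. This share is near that of all genes, of which 51.9% differed (26.7% higher and 25.2% lower). Tslp, the other cytokine whose receptor uses the Il7r chain, was 8.75 ± 0.55 higher in 4T1 (adjusted p = 4.05e-12), and Il7 itself was lower at -1.64 ± 0.28 (adjusted p = 3.01e-05). Jak3, the kinase of the common gamma chain, was 2.44 ± 0.41 higher (adjusted p = 2.31e-05), and Bcl2, a survival gene downstream of the receptor, was 1.38 ± 0.22 higher (adjusted p = 1.1e-05). Within 4T1, 2 of 13 fell with poly I:C (background 3.06% lower, 6.32% either way), Cish (-1.003 ± 0.224, adjusted p = 0.0212) and Bcl2 (-0.62 ± 0.16, adjusted p = 0.0332). Cish, a feedback inhibitor induced by STAT5, lost its call without control 3, control 4 or poly I:C 2, and Bcl2 without any 1 of the 4 controls or poly I:C 2.

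Across the MT libraries the members varied together, and in 4T1 less so outside the Glycam1-high libraries. Over the 36 pairs of members, Pearson's r of log2 CPM ran from 0.834 to 0.997 over the 16 MT libraries and from 0.856 to 0.996 over the 10 without high Glycam1. In 4T1 it ran from 0.619 to 0.983 over 15 libraries, and over the 12 without high Glycam1 from -0.628 (Cd4 with Il7r) to 0.952, with a median of 0.31. The libraries share their tissue pieces and treatments, so these values describe them only.

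The genes most like each member were chosen by the smaller of its r over the 15 4T1 and the 16 MT libraries. For Cd3e they included Tbc1d10c (0.984), Trbc2 (0.980), Zap70 (0.979) and Cd2 (0.978). Lck was most like Cd2 (0.991) and Gimap3 (0.989), Cd3d like Sh2d1a (0.974), Cd3g like Zap70 (0.978) and Cd8b1 like Zap70 (0.961). Cd8a was most like Nkg7 (0.953), a gene of cytotoxic granules, with r of 0.948 and 0.982 in the 12 4T1 and 10 MT libraries without high Glycam1. Cd4 was most like Cd22 (0.967), H2-Ob (0.956) and Ighm (0.955), which are B cell genes, and kept r of 0.879 and 0.968 with Cd22 in those libraries. Il7r was most like Fam169b (0.949) and Kif21b (0.938), with r of 0.653 and 0.512 in the 12 4T1 libraries without high Glycam1. Cd247 was most like Klhl6 (0.936), with r of 0.596 there.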

How the data were processed

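Bulk polyA tumour RNA was sequenced from 31 strand-specific libraries, per the labels' protocols. The authors deposited raw read counts per gene. The submitters' processing notes name Trimmomatic 0.32.48, STAR 2.3.0, featureCounts 1.4.4 and mm10. The annotation release and strand setting are not given in the sources used here.

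CPM, each count scaled to its library total, was computed and used for levels and ratios. Differences were tested with edgeR 4.0.16 (R 4.3.3), with TMM scaling, filterByExpr at a minimum count of 10, and the quasi-likelihood test, in 1 fit per model and 1 joint fit. Thresholds were a Benjamini-Hochberg adjusted p under 0.05 over all genes tested. TMM factors were 0.933 to 1.09. Alternatives were DESeq2 1.42.0, limma 3.58.1 voom, DESeq2 size factors, no filter, a replicate block, a Krt5 to Sox10 covariate, only the groups compared, and fits without single libraries or sets of libraries. The set with Glycam1 above 50 CPM was added after seeing the data. Scripts were tested on simulated data.

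The members and lists were chosen with earlier results of these data known. All 9 members are given in every group, and fold changes are given for the 2 with the smallest p in each comparison with all libraries, where none passed. For fits without the Glycam1-high libraries, counts, ranges and chosen examples are given. Genes of other lists are those called with the smallest p. Positions are from GENCODE M21. Replicate libraries all differed by more than sampling noise, and intervals were not drawn for single libraries. Some genes that the rules would name are not reported here.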

Additional observations from a re-analysis of the deposited data

Results flagged for a closer look

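In 28 of 63 combinations of a gene and a group of 4 libraries, the highest library of a T cell gene stood apart from the other 3 by more than Dixon's critical value of 0.829 (its gap to the next, divided by the range). Chance flags about 1 in 20 such groups where values are independent and normal, but the 9 genes share libraries and vary together, so the flags are not independent of each other. The share of all genes that this rule flags is not given here, so the number is not shown to be particular to T cell genes. All the flags are high values, and 27 of the 28 are in libraries with Glycam1 above 50 CPM.

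In MT control 4, 8 genes were flagged: Cd3d (41.9 CPM), Cd3e (65.7 CPM), Cd3g (96.4 CPM), Cd247 (35.9 CPM), Cd4 (52.8 CPM), Cd8b1 (38.9 CPM), Lck (97.5 CPM) and Il7r (57.6 CPM). In MT phenformin 4 the same 8 were flagged, with Cd3d at 88.2, Cd3e at 132, Cd3g at 197, Cd247 at 71.5, Cd4 at 136, Cd8b1 at 80.4, Lck at 208 and Il7r at 116 CPM. In 4T1 poly I:C 1, 6 were flagged, with Cd3d at 27.9, Cd3e at 54.8, Cd4 at 48.5, Cd8b1 at 29.2, Lck at 74.9 and Il7r at 107 CPM. In 4T1 control 4, Cd3e (29.0 CPM), Cd8b1 (22.7 CPM) and Lck (37.3 CPM) were flagged, and in MT poly I:C 3, Cd247 (56.9 CPM) and Il7r (92.4 CPM). The remaining flag was Cd8b1 in 4T1 combination 1, at 8.64 CPM. Cd8a was flagged in no library.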

How the results depend on the processing

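With all libraries, 0 of 9 T cell genes passed in each of the 16 comparisons. Without the 3 4T1 libraries with Igkc above 100 CPM, the same 3 as by Glycam1, 1 passed for 4T1 poly I:C. For MT poly I:C the count was 1 with the replicate block (Cd8a, 1.81, adjusted p = 0.0398), 9 with voom, 9 without the Glycam1-high libraries, and 0 to 2 over the fits without 1 replicate. For the MT combination it was 8 with voom, 8 without the Glycam1-high libraries and 0 to 6 without 1 replicate. For the MT combination against phenformin voom gave 3. In these comparisons, in that order, voom called 10642, 9378 and 5486 of 17857 genes. Without the Glycam1-high libraries, 37.3% of all genes passed for MT poly I:C and 31% for the MT combination. Over the fits without 1 replicate, 1512 to 6256 and 19 to 5375 of all genes passed. The number of all genes passing with the replicate block is not given here. Between controls, the fit without the Sox10-high libraries leaves 1 MT control and cannot decide whether a call holds. Without the Glycam1-high libraries the count between controls was 3, where 58.8% of all genes passed. For the difference of poly I:C responses it was 8 and for that of combination responses 5 without the Glycam1-high libraries. The latter was 0 to 7 without 1 replicate, where 230 to 4474 of all genes passed. The highest leave-one-out counts of T cell genes are all without MT control 4.

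Directions that turned were all of differences that had not passed. With voom, 4T1 combination against poly I:C gave 0.28 for Cd4, and MT combination against poly I:C -0.15 for Lck and -0.20 for Cd247. Without the Igkc-high 4T1 libraries, Cd4 gave 1.15 for the combination against poly I:C and 1.35 for the interaction, and the difference of phenformin responses was -0.94 for Il7r and -0.10 for Lck. Without the Glycam1-high libraries, MT combination against poly I:C gave -0.18 for Lck and -0.14 for Cd247, and the difference of phenformin responses was -1.21 for Il7r. Without the Sox10-high libraries, Cd8b1 gave -0.25 for MT poly I:C (-0.51 with the Krt5 to Sox10 covariate) and 0.25 for the difference of poly I:C responses, and MT combination against phenformin gave -0.39 for Cd8a and -0.74 for Lck.

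Over fits without 1 replicate, 4T1 values ran from -0.11 to 0.64 for Cd247 in poly I:C, -0.29 to 1.88 for Il7r in phenformin, -2.94 to 1.15 for Cd4 in combination against poly I:C and -4.30 to 0.12 for Cd4 in the interaction. MT values ran from -0.15 to 1.503 for Cd8a and -0.63 to 1.90 for Cd8b1 in phenformin, from -0.01 (-0.0078) to 1.23 for Lck and -0.13 to 1.21 for Cd247 in combination against poly I:C, and from -1.32 to 0.34 for Cd8a and -3.16 to 1.92 for Cd4 in the interaction. Between models they ran from -1.98 to 0.54 for Cd3d in the controls, and from -1.78 to 2.48 for Il7r and -0.87 to 1.88 for Lck in the phenformin responses. The cause was not tested.

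Over all genes, counts moved by more than 1.5 times in most comparisons: over the alternatives 4T1 poly I:C called 0 to 2863 genes (1102 with all libraries), MT poly I:C 0 to 10642 (3500), the MT combination 0 to 9378 (1096), the MT combination against phenformin 0 to 5486 (19), 4T1 combination against poly I:C 0 to 1577 (43), the difference of poly I:C responses 450 to 4902 (2108) and that of combination responses 3 to 4474 (864).

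The labels do not say that replicate numbers shared by groups pair the libraries. Same-numbered deviations correlated from -0.531 to 0.236 in 4T1 (median -0.054) and from -0.799 to 0.792 in MT (median 0.108). The medians between different numbers were 0.029 and 0.006. These values cannot decide whether libraries are paired, so the replicate block is only an alternative. In MT, replicate 4 of every arm was Glycam1-high. Only the groups compared could not be fitted for the interactions. Depth was not varied. Cd4 rests on 11 to 48 reads in 4T1 poly I:C 2 to 4 and the 4T1 combination.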
